A study of Homo sapiens with 18 samples.

Results

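The 9 enzymes described here make the building blocks of RNA and DNA: TYMS, RRM1, RRM2 and TK1 for deoxynucleotides, CAD and UMPS for pyrimidines, and PPAT, GART and IMPDH2 for purines. They were taken by name, with earlier results of these data known. Each was read from the one probe set annotated to that gene alone, and 9 of 9 were measured, out of 18417 genes that the arrays read through such a probe set.

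Purines and pyrimidines are built from amino acids, bicarbonate and one-carbon units by de novo pathways, or recovered from free bases and nucleosides by salvage. Ribonucleotide reductase turns ribonucleotides into deoxynucleotides, and thymidylate synthase makes the thymidine nucleotide that only DNA uses. Cells that divide need both supplies, and leukemia is treated with drugs against several of these enzymes.

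RNA came from NB4, an established human line of acute promyelocytic leukemia that matures towards neutrophil-like cells when given all-trans retinoic acid (ATRA). The modified line is labelled TG2 knockout, after transglutaminase 2, the product of TGM2, which links proteins to each other. Untreated knockout cells, knockout cells at 48 h and at 72 h of 1 µM ATRA, and the same 3 states of wild-type cells made 6 groups of 3 arrays. The labels call the arrays of a group biological replicates and do not say that they came from separate cultures, so p-values measure the spread between these arrays. They give no account of how TG2 was removed or whether the line is 1 clone, and their sample codes carry the letters KD.

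Values are the deposited signals on a scale taken here as log2, so a difference of 1 is 2-fold. Array medians lay between 6.12 and 6.26. The spread between arrays was wider under ATRA: the median SD of a probe set was 0.0985 untreated, 0.243 at 48 h and 0.226 at 72 h in knockout cells, and 0.0757 untreated, 0.231 at 48 h and 0.215 at 72 h in wild-type cells. TGM2 averaged 6.39 ± 0.11 untreated, 10.95 ± 0.37 at 48 h and 11.24 ± 0.37 at 72 h in knockout cells, against 6.43 ± 0.17, 12.27 ± 0.18 and 12.37 ± 0.18 in wild-type cells (SD, n = 3 each). The knockout arrays under ATRA averaged below the wild-type ones but far above the untreated ones, the labels do not say which part of the gene was altered, and knockout is used below as the label only. Of 5 measured promyelocyte markers, 3 or 4 lay above the 75th percentile of probe sets in each group. None of 6 erythroid and megakaryocyte markers and none of 5 monocyte markers did, and 1 of 6 lymphocyte markers did, NKG7, a granule gene of killer lymphocytes.

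Sequence upstream of the members is shown first, because genes that share a word there can be set beside each other in the values that follow. RefSeq windows (build GRCh38.p14) run from 250 bases before a start to 50 after it, and 8 of the 9 members, all but IMPDH2, have at least 1. They were searched on both strands for CCAAT (the CCAAT box, bound by NF-Y), for CACGTG (an E-box that MYC and MAX bind) and for 3 E2F words, TTTGGCGC, TTTCCCGC and TTTCGCGC, whose letters do not contain either of the other words. Of 35097 windows, 34.6% held CCAAT, 10.7% held it at least 2 times, 3.25% at least 3 times, 7.25% held CACGTG and 2.74% held an E2F word. In the lines below a word, or its reverse complement, stands in capitals within 30 bases of the gene's strand.
RRM2 (chr2:10122604-10122633, + strand, word 123 bases before the start): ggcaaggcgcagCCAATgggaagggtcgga
RRM2 (chr2:10122634-10122663, 93 bases before): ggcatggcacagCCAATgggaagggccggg
RRM2 (chr2:10122661-10122690, 66 bases before): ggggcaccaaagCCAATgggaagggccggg
TK1 (chr17:78187112-78187141, − strand, 77 bases before): ggccgggcgctgATTGGccccatggcggcg
TK1 (chr17:78187081-78187110, 46 bases before): ggccggctcgtgATTGGccagcacgccgtg
GART (chr21:33542998-33543027, − strand, 123 bases before): gaggcgcacgggCCAATtcggtctctcgcc
GART (chr21:33542974-33543003, 99 bases before): ctcgccttcctgATTGGctccaaagggaat
GART (chr21:33542928-33542957, 53 bases before): tccaccgagggaCCAATcagtgagcacggc
RRM1 (chr11:4094645-4094674, + strand, 28 bases before): gcatgtccatatCCAATggggcccatggga
TYMS (chr18:657603-657632, + strand, 39 bases before): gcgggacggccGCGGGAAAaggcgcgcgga
PPAT (chr4:56435780-56435809, − strand, 182 bases before): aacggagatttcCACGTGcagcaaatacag

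In the windows shown RRM2 and GART thus held CCAAT 3 times, TK1 2 times and RRM1 once, while TYMS held an E2F word. PPAT held CACGTG in the stretch it shares with PAICS, its neighbour in the purine pathway and on the chromosome. The 2 genes are read in opposite directions from starts 137 bases apart, and 236 bases of these windows are the same letters on opposite strands. PAICS has 2 other windows, which share 0 bases with that of PPAT. In CAD a CCAAT word lay 250 bases before the start, and no word was found in UMPS. RRM2 has a second window with 1 CCAAT, TK1 has another with none of the words, and GART has 2 more, one over nearly the same bases and one with 1 CCAAT and 1 E2F word. A word is a description of the letters, not a bound site.

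Under ATRA for 72 h, in knockout cells, TYMS, RRM1, UMPS and PPAT fell, by 0.87 to 1.10 on the log2 scale. In wild-type cells at 72 h the same 4 genes fell by 0.85 to 1.37, CAD and GART fell too, and TK1 rose. IMPDH2 and RRM2 passed the test in neither genotype at either time. A linear model over all 18 arrays (limma, 2-sided, Benjamini-Hochberg adjustment over 33297 probe sets) called a probe set at an adjusted p under 0.05.

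In knockout cells 0 members were called higher and 5 lower at 48 h, and 0 higher and 4 lower at 72 h (limma; at neither time did a higher member reach an unadjusted p under 0.05). The background of all probe sets was 21.5% higher and 19.9% lower at 48 h, and 22.8% higher and 19.2% lower at 72 h. In wild-type cells 1 member was higher and 5 were lower at 48 h, against 19.3% and 19.6% of all probe sets. At 72 h 1 was higher and 6 were lower, against 23.1% and 21.0%. The median member change was −0.57 and −0.44 in knockout cells at 48 and 72 h, against 0.14 and 0.13 over all probe sets. For wild-type cells it was −0.70 and −0.85, against 0.10 and 0.12. Bulk RNA cannot tell fewer cells that express a gene from less RNA per cell.

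The arrays themselves show how far the groups stood apart. At 48 h in knockout cells, 5 members had every ATRA array below every untreated one (24.2% of all probe sets did) and 0 had every one above (33.2%). At 72 h it was 5 below (24.6%) and 1 above, IMPDH2 (33.2%). In wild-type cells 6 members lay below at 48 h (26.4%) and 1, TK1, above (31.7%). The same 6 lay below at 72 h (27.2%), and TK1 again above (35.1%).

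The members are bright: their group means lay between the 73.6th and the 97.4th percentile of probe sets. Bright probe sets were called lower more often than all probe sets were. Of the 5580 single-gene probe sets whose mean lay above the 75th percentile of all probe sets, 47.6% and 44.6% were called lower in knockout cells at 48 and 72 h, and 44.4% and 48.0% in wild-type cells. That background was added after the data were seen. Against it, 5 and 4 of 9 in knockout cells are near the background, 5 of 9 in wild-type cells at 48 h is near it too, and 6 of 9 at 72 h is somewhat above. After quantile normalization that last count was 4 of 9. The median changes of these bright probe sets were −0.37 and −0.31 in knockout cells and −0.32 and −0.36 in wild-type cells.

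**Figure D1:**
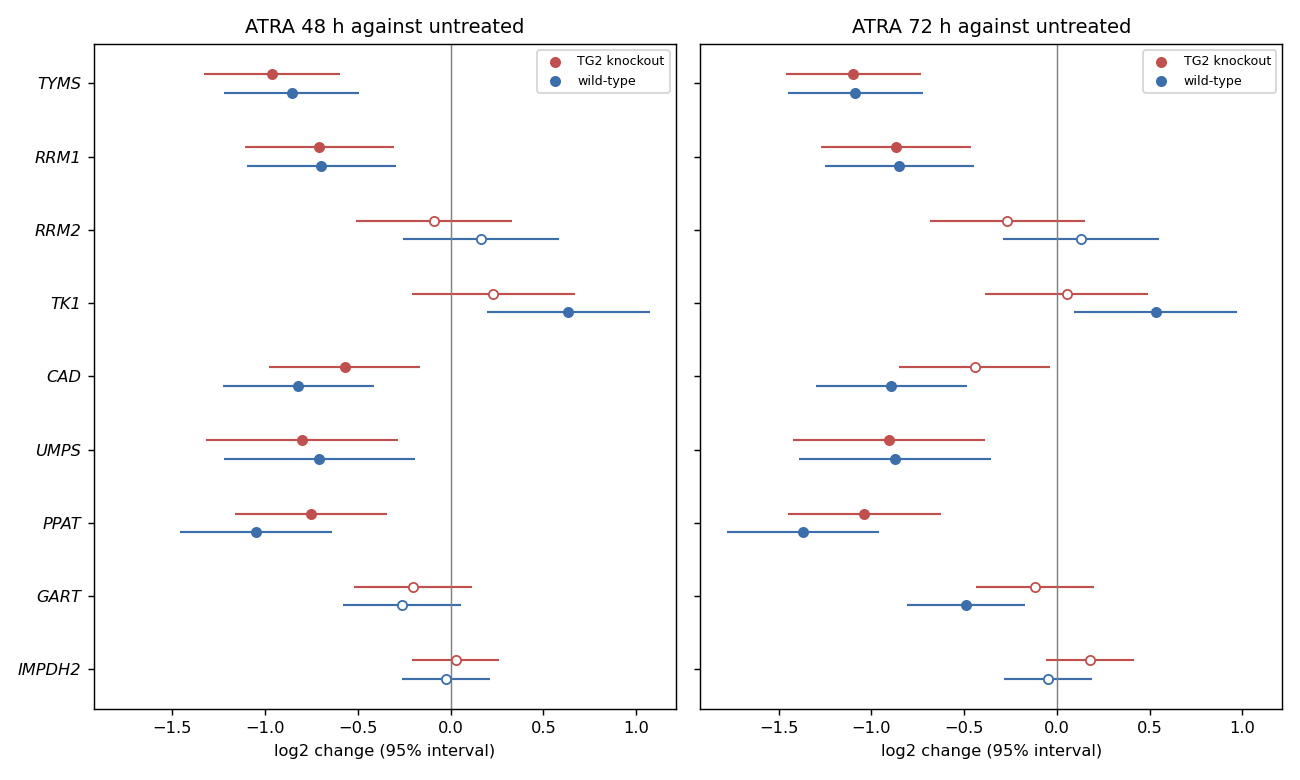
Log2 change of each member under ATRA against untreated cells of the same genotype at 48 h (left panel) and 72 h (right panel), with 95% intervals from the model. Filled points passed the adjusted test and open points did not. TYMS, RRM1, UMPS and PPAT are filled and below 0 in both genotypes and at both times.

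TYMS, thymidylate synthase, makes thymidylate from deoxyuridylate and a folate one-carbon unit. In knockout cells its log2 signal was 11.25, 11.25 and 11.27 untreated, 10.53, 10.27 and 10.08 at 48 h, and 9.91, 10.59 and 9.98 at 72 h. Wild-type arrays read 11.36, 11.36 and 11.33 untreated, 10.74, 10.51 and 10.23 at 48 h, and 10.33, 10.46 and 10.00 at 72 h. Every ATRA array lay below every untreated array. The change in knockout cells was −0.96 at 48 h and −1.10 at 72 h (SE 0.172), 1.95-fold and 2.14-fold lower (limma adjusted p = 0.000354 and 0.000117). The wild-type change was −0.86 and −1.09 (SE 0.172), 1.81-fold and 2.12-fold lower (limma adjusted p = 0.000964 and 0.000106).

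RRM1 is the large subunit of ribonucleotide reductase, and RRM2 is its small subunit of S phase. RRM1 read 10.26, 10.33 and 10.22 untreated, 9.76, 9.51 and 9.42 at 48 h, and 9.15, 9.89 and 9.17 at 72 h in knockout cells. The wild-type values were 10.32, 10.31 and 10.35 untreated, 9.96, 9.54 and 9.39 at 48 h, and 9.53, 9.73 and 9.17 at 72 h. All 12 ATRA arrays were below the untreated ones. RRM1 fell by 0.71 and 0.87 in knockout cells at 48 and 72 h (SE 0.19; limma adjusted p = 0.00743 and 0.00184) and by 0.70 and 0.85 in wild-type cells (SE 0.19; limma adjusted p = 0.00852 and 0.0019).

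RRM2 was called at neither time in either genotype. It read 9.43, 9.43 and 9.44 in untreated knockout cells, 9.63, 9.08 and 9.32 at 48 h, and 8.66, 9.66 and 9.18 at 72 h. The wild-type arrays gave 9.41, 9.46 and 9.37 untreated, 9.78, 9.59 and 9.36 at 48 h, and 9.45, 9.78 and 9.40 at 72 h. ATRA arrays lay on both sides of the untreated ones in each genotype. The changes were −0.09 and −0.27 in knockout cells (limma adjusted p = 0.735 and 0.291) and 0.16 and 0.13 in wild-type cells (limma adjusted p = 0.54 and 0.616), with SE 0.198. Knockout 72 h replicate 2 held that group up: without it the change at 72 h was −0.51 (limma adjusted p = 0.0314). The alternative small subunit RRM2B, which works outside S phase and is known as a p53 target, fell in both at 72 h, with changes of −1.36 in knockout and −1.44 in wild-type cells (limma adjusted p = 6.29e-05 and 2.97e-05).

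TK1, the cytosolic thymidine kinase of salvage and a gene of S phase, was the one member called higher, and in wild-type cells. Its signals in knockout cells were 8.09, 8.02 and 7.96 untreated, 8.23, 8.68 and 7.85 at 48 h, and 7.97, 8.47 and 7.79 at 72 h. In wild-type cells they were 7.98, 7.92 and 8.04 untreated, 8.78, 8.72 and 8.34 at 48 h, and 8.63, 8.73 and 8.18 at 72 h. In wild-type cells every ATRA array exceeded every untreated one, and in knockout cells the groups overlapped. The change was 0.23 at 48 h and 0.05 at 72 h in knockout cells (SE 0.208; limma adjusted p = 0.387 and 0.851), against 0.63 and 0.53 in wild-type cells (SE 0.208; limma adjusted p = 0.0239 and 0.0471). The wild-type calls are weak: 4 of 15 alternatives lost the one at 48 h (adjusted p up to 0.0773) and 7 of 15 the one at 72 h (up to 0.157), where leaving out any of 5 arrays, that is each untreated replicate or 72 h replicate 1 or 2, was enough.

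CAD joins the first 3 steps of pyrimidine synthesis in one protein, and UMPS carries out the last 2 steps to UMP. CAD read 9.96, 9.91 and 9.87 in untreated knockout cells, 9.38, 9.30 and 9.35 at 48 h, and 9.32, 9.59 and 9.50 at 72 h. Wild-type cells gave 9.75, 9.78 and 9.74 untreated, 9.50, 8.79 and 8.52 at 48 h, and 8.69, 9.24 and 8.66 at 72 h. All ATRA arrays lay below the untreated ones, and in wild-type cells 48 h replicate 1 lay closest to them. CAD fell by 0.57 in knockout cells at 48 h (SE 0.192; limma adjusted p = 0.0259). At 72 h in knockout cells the change was −0.44 (limma adjusted p = 0.0737), which passed when only the compared groups were fitted (0.00743) and with array weights per group (0.026). In wild-type cells CAD fell by 0.82 at 48 h and fell by 0.89 at 72 h (SE 0.192; limma adjusted p = 0.00311 and 0.00142). The knockout call at 48 h did not hold without untreated replicate 1, 2 or 3 or 48 h replicate 2 (adjusted p 0.0511 to 0.073), nor after quantile normalization (0.211).

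UMPS read 9.69, 9.61 and 9.50 in untreated knockout cells, 9.19, 8.64 and 8.56 at 48 h, and 8.46, 9.14 and 8.49 at 72 h. Wild-type arrays read 9.48, 9.48 and 9.61 untreated, 9.27, 8.88 and 8.30 at 48 h, and 8.75, 8.96 and 8.24 at 72 h. No ATRA array reached an untreated one of its genotype, but the ATRA arrays of a group lay far apart. UMPS fell by 0.80 and 0.90 in knockout cells (SE 0.244; limma adjusted p = 0.0153 and 0.00761) and by 0.71 and 0.87 in wild-type cells (SE 0.244; limma adjusted p = 0.0309 and 0.00879). At 48 h the wild-type call was lost without any one of 5 arrays (each untreated replicate and 48 h replicates 2 and 3, adjusted p 0.0589 to 0.167) and after quantile normalization (0.158). The knockout call at 48 h was lost without untreated replicate 1 or 48 h replicate 2 or 3 (0.0515 to 0.0554) and after quantile normalization (0.0921), and the wild-type call at 72 h without 72 h replicate 3 (0.0511) and after quantile normalization (0.0557).

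PPAT catalyses the first committed step of purine synthesis and had the largest fall of the 9 members in wild-type cells. It read 9.99, 9.98 and 10.00 in untreated knockout cells, 9.39, 8.90 and 9.42 at 48 h, and 8.61, 9.34 and 8.91 at 72 h. The wild-type arrays read 10.07, 10.03 and 10.02 untreated, 8.86, 9.33 and 8.79 at 48 h, and 8.35, 8.92 and 8.74 at 72 h. The ATRA arrays were all well below the untreated ones. PPAT fell by 0.75 and 1.04 in knockout cells (SE 0.193; limma adjusted p = 0.00561 and 0.000527) and by 1.05 and 1.37 in wild-type cells (SE 0.193; limma adjusted p = 0.00048 and 3.52e-05), which is 2.07-fold and 2.58-fold lower in wild-type cells. Quantile normalization alone lost the knockout call at 48 h (0.0568). PAICS, whose window holds the same CACGTG word 40 bases after its start and which carries 2 later steps, fell in both genotypes at 72 h, with changes of −0.78 in knockout and −1.13 in wild-type cells (limma adjusted p = 0.00142 and 4.55e-05).

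GART holds 3 activities of the purine ring pathway. Its signals were 9.50, 9.53 and 9.48 in untreated knockout cells, 9.43, 8.95 and 9.52 at 48 h, and 9.17, 9.52 and 9.47 at 72 h. In wild-type cells they were 9.55, 9.52 and 9.63 untreated, 9.38, 9.35 and 9.18 at 48 h, and 8.79, 9.30 and 9.14 at 72 h. The wild-type ATRA arrays were all below the untreated ones, and the knockout groups overlapped. The changes were −0.20 and −0.12 in knockout cells at 48 and 72 h and −0.26 in wild-type cells at 48 h (limma adjusted p = 0.289, 0.552 and 0.178). GART fell by 0.49 in wild-type cells at 72 h (SE 0.15; limma adjusted p = 0.015), a call lost after quantile normalization (−0.20, 0.294) and without untreated replicate 3 (0.0532) or 72 h replicate 1 (0.0818).

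IMPDH2, the type 2 IMP dehydrogenase that commits purines to guanine nucleotides, had the least spread of the members. Its 9 arrays in knockout cells read 10.48, 10.48 and 10.47 untreated, 10.63, 10.20 and 10.68 at 48 h, and 10.56, 10.68 and 10.72 at 72 h. In wild-type cells they read 10.53, 10.53 and 10.50 untreated, 10.63, 10.42 and 10.44 at 48 h, and 10.44, 10.60 and 10.37 at 72 h. Knockout arrays at 72 h all lay above the untreated knockout ones. The change was 0.03 and 0.18 in knockout cells (95% interval at 72 h −0.06 to 0.41) and −0.02 and −0.05 in wild-type cells (at 72 h −0.29 to 0.19), and none passed (limma adjusted p 0.213 to 0.886). After quantile normalization the knockout change at 72 h was 0.38 and passed (limma adjusted p = 0.00478).

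Ranked by group mean, the untreated groups were the highest 2 of the 6 for TYMS, RRM1, CAD, UMPS, PPAT and GART. For each of these except GART the lower untreated group did not overlap the next group, and ATRA groups next to each other in rank overlapped for all 6 genes. For RRM2 and TK1 every pair of neighbouring groups overlapped, and both wild-type ATRA groups ranked highest. For IMPDH2 the knockout group at 72 h ranked highest, at 10.65 ± 0.08 (SD, n = 3), above and apart from untreated wild-type cells at 10.52 ± 0.02 (SD, n = 3), and all groups after these overlapped their neighbours.

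**Figure D2:**
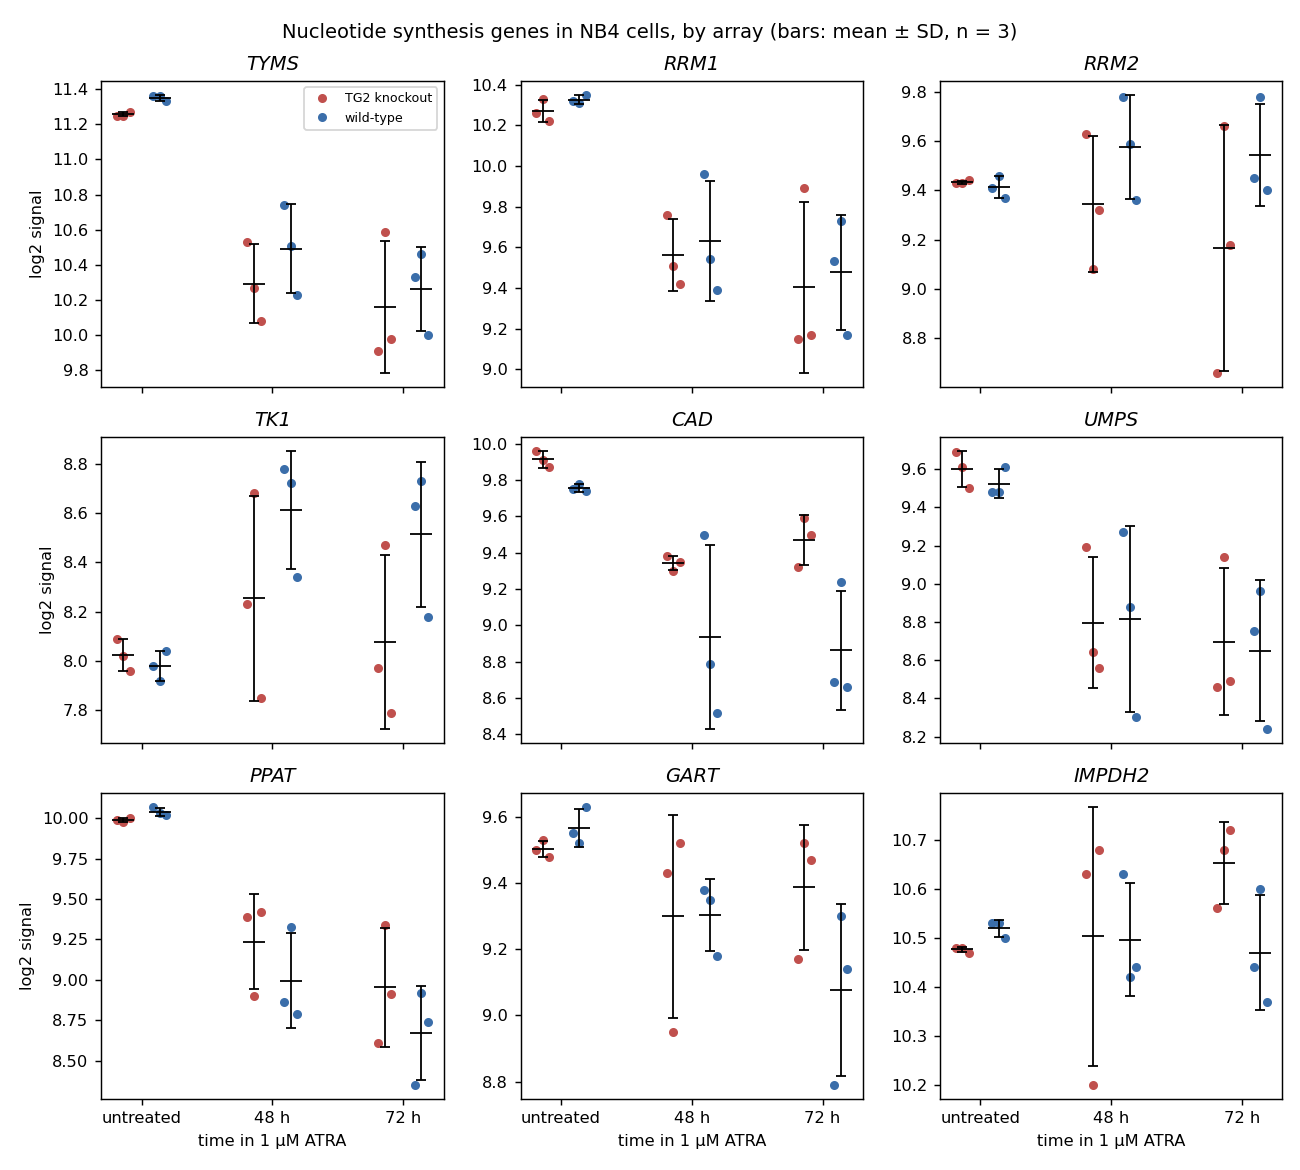
Log2 signal of each member in the 18 arrays, by time in ATRA, with knockout points left of wild-type points at each time. Crosses give the group mean ± SD (n = 3), and each panel has its own axis, which does not start at 0. Untreated arrays are tight, ATRA arrays spread more, and TK1 in wild-type cells is higher under ATRA.

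The median member change of an array against its untreated group ran from −0.61 to −0.41 in knockout cells at 48 h and from −0.77 to −0.32 at 72 h. For wild-type cells it ran from −0.94 to −0.25 at 48 h and from −1.10 to −0.52 at 72 h. The smallest shifts were those of knockout 72 h replicate 2 (−0.32) and wild-type 48 h replicate 1 (−0.25). The proliferation genes listed below had their smallest median shifts on the same 2 arrays, −0.59 and −0.56, and how far that bears on the members was not tested.

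Genes of nucleotide metabolism were also counted by pathway, on lists chosen with earlier results of these data known. The lists hold the members too, so their counts include the calls given above: PPAT and GART among the purine ring genes, IMPDH2 in the AMP and GMP branches, CAD and UMPS among the pyrimidine genes, and TYMS, RRM1, RRM2 and TK1 in deoxynucleotide supply. TK1, TK2, DCK and DGUOK count both there and under salvage. Of 8 purine ring genes measured, 6 were called lower in knockout cells at 72 h (median −0.71) and 8 in wild-type cells (median −1.04). Of all probe sets 19.2% and 21.0% were lower there, and of the bright ones above 44.6% and 48.0%. These shares stand beside every list that follows. PRPS2, which makes the ribose donor of the pathway, fell, with changes of −1.75 in knockout and −1.96 in wild-type cells at 72 h. ADSL, which acts both in the ring pathway and in making AMP, fell too, with −1.0 in knockout and −1.45 in wild-type cells. ATIC, which closes the ring, had −0.45 in knockout and −0.94 in wild-type cells, both called. Over 15 alternatives the knockout count stayed between 5 and 7 and the wild-type count between 6 and 8.

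Of 5 measured genes of the AMP and GMP branches, 1 was lower and 1 was higher in each genotype at 72 h. GMPS, the GMP synthase, fell, with −1.0 in knockout and −1.11 in wild-type cells. GUK1, the guanylate kinase, rose by 0.84 in knockout and by 1.11 in wild-type cells. IMPDH1, the sister enzyme of IMPDH2, was not called, with −0.09 in knockout and −0.10 in wild-type cells.

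Of 6 pyrimidine genes, 2 were lower and 1 was higher in knockout cells at 72 h, and 5 were lower and 1 higher in wild-type cells. The bright shares called lower were 44.6% in knockout and 48.0% in wild-type cells. CTPS1, which makes CTP from UTP, had a change of −0.37 in knockout cells (limma adjusted p = 0.0931), and it fell in wild-type cells (−0.83). DHODH, the mitochondrial step between CAD and UMPS, fell, with −0.37 in knockout and −0.55 in wild-type cells. The knockout call of DHODH was lost in 6 of 15 alternatives, and the count of lower genes there ran from 1 to 5 (1 without untreated replicate 1 or 2 or without 72 h replicate 3, and after quantile normalization). In wild-type cells it ran from 3 to 5, and was 3 without 72 h replicate 3 and after quantile normalization.

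Of 12 genes of deoxynucleotide and thymidylate supply, 5 were lower and 1 higher in knockout cells at 72 h, and 6 lower and 2 higher in wild-type cells. With 44.6% and 48.0% of the bright probe sets called lower, these counts lie near that background and are no result about this pathway. DTYMK, which phosphorylates the product of TYMS, fell most, with −1.90 in knockout and −1.70 in wild-type cells (limma adjusted p = 4.17e-06 and 9.33e-06). It has 2 single-gene probe sets, and only the brighter one was read. The mitochondrial deoxyguanosine kinase DGUOK fell, with −1.04 in knockout and −1.08 in wild-type cells. The counts of lower genes ran from 5 to 8 in knockout and from 5 to 7 in wild-type cells over the alternatives.

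Of 6 measured folate enzymes, which supply the one-carbon units, 1 was lower in knockout cells and 2 in wild-type cells at 72 h. The knockout call was that of SHMT1, lost in 6 of 15 alternatives (limma adjusted p up to 0.199). Over the alternatives the count of lower genes ran from 0 to 3 in knockout and from 1 to 2 in wild-type cells. MTHFD1L, of the mitochondrial formate route, had −0.39 in knockout cells (limma adjusted p = 0.0893) and fell in wild-type cells (−1.01). MTHFD1, its cytosolic relative that makes the formyl donor of the purine ring, had −0.50 in knockout cells (limma adjusted p = 0.107). In wild-type cells MTHFD1 fell (−0.74), a call lost in 4 of 15 alternatives.

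Of 10 salvage genes 5 were lower and 1 higher in knockout cells at 72 h, and 6 lower and 2 higher in wild-type cells. Beside the bright shares of 44.6% and 48.0%, the knockout count of lower genes is near the background and the wild-type count somewhat above. Over the alternatives the lower count ran from 4 to 7 in each genotype, so the wild-type count did not stay above in all of them. The higher count ran from 0 to 2 in knockout and from 0 to 3 in wild-type cells. ADK, adenosine kinase, fell, with −1.41 in knockout and −1.59 in wild-type cells. UCKL1 and UCK1, of the uridine-cytidine kinase family, fell as well, with −0.87 and −0.97 in knockout cells and −0.94 and −0.79 in wild-type cells.

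More genes that break nucleotides down were higher than lower. Of 14 measured, 6 were higher and 1 lower in knockout cells at 72 h, and 6 were higher in wild-type cells. Of all probe sets 22.8% were higher and 19.2% lower in knockout cells, and 23.1% and 21.0% in wild-type cells. SAMHD1, which hydrolyses deoxynucleoside triphosphates, rose by 1.70 in knockout and by 2.21 in wild-type cells (limma adjusted p = 3.31e-07 and 1.59e-08). ADA, adenosine deaminase, rose by 1.28 in knockout and by 1.98 in wild-type cells, and UPP1, a uridine phosphorylase, by 0.62 in knockout and by 0.98 in wild-type cells. The knockout call of UPP1 was lost in 6 of 15 alternatives (adjusted p up to 0.141). TYMP, the thymidine phosphorylase, had 0.31 in knockout cells (limma adjusted p = 0.137) and rose by 0.47 in wild-type cells, a call that 5 of 15 alternatives lost. The count of higher genes ran from 3 to 8 in both genotypes, and it was 3 in wild-type cells without untreated replicate 3. Among 4 nucleoside transporters, SLC28A3, a concentrative carrier, fell, with −1.28 in knockout and −1.67 in wild-type cells. The equilibrative carrier SLC29A1 rose by 0.51 in knockout and by 0.60 in wild-type cells.

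Replication and division genes were counted in the same arrays. Of 16 replication genes 7 were lower and 1 higher in knockout cells at 72 h, and 9 lower and 1 higher in wild-type cells. Among the bright probe sets 44.6% were called lower in knockout and 48.0% in wild-type cells, so these counts are no result about replication genes. Over the alternatives the lower count ran from 5 to 13 in knockout cells, where it was 13 without 72 h replicate 2, and from 6 to 12 in wild-type cells. GINS2, of the replicative helicase complex, fell, with −2.61 in knockout and −2.53 in wild-type cells, and MCM3 fell with −0.93 in knockout and −1.13 in wild-type cells. Of 10 proliferation genes 8 were lower in each genotype at 72 h, among them CDK1 (−1.32 in knockout, −1.22 in wild-type) and CENPF (−1.52 in knockout, −1.42 in wild-type). Of 9 regulators, 6 were lower and 1 higher in knockout cells and 5 lower in wild-type cells, against the same bright shares. MYC fell, with −0.77 in knockout and −1.05 in wild-type cells, and so did its partner MAX, with −0.98 in knockout and −1.10 in wild-type cells. The repressor gene E2F8 had −1.59 in knockout and −1.61 in wild-type cells, both called.

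**Figure D3:**
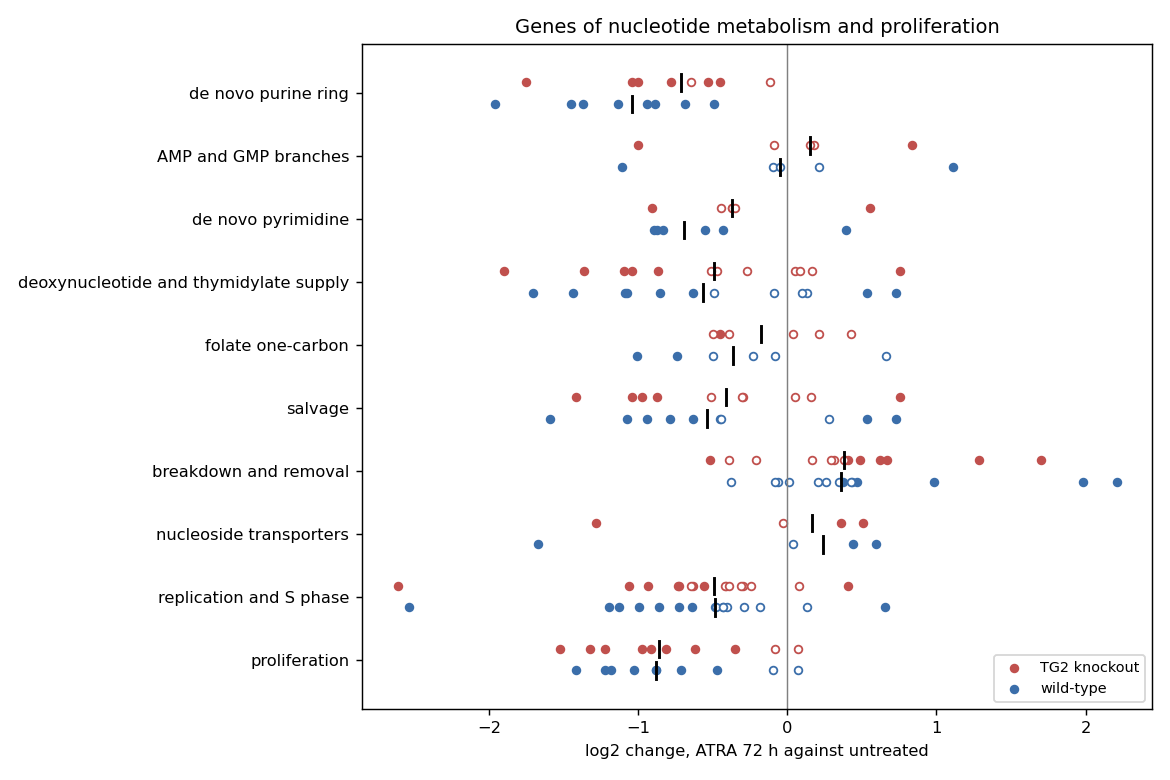
Log2 change at 72 h of ATRA against untreated cells for each gene of 10 lists, with knockout points above wild-type points, filled where called and open where not. Black bars mark the list median. All 8 wild-type points of the purine ring list are filled and below 0, and the largest positive points are SAMHD1 and ADA in the breakdown list.

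Whether these genes differ between the genotypes was asked by setting knockout against wild-type arrays at each time. None of the 9 members differed past the test. Untreated, 0 were called and 0 had an unadjusted p under 0.05 (limma), where 0.00601% of all probe sets were called. At 48 h of ATRA it was again 0 and 0, with 0.0210% of probe sets called, and at 72 h 0 and 1, with 0.0961% called. Differences of untreated cells ran from −0.09 for TYMS to 0.16 for CAD, and every 95% interval lay within −0.46 to 0.59. The model shares 1 spread per probe set over all 6 groups. These untreated intervals thus also carry the wider spread of the ATRA arrays, and intervals between ATRA groups carry the tighter untreated spread. With only the compared groups fitted, or with array weights per group, the untreated count stayed at 0.

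The widest gap was that of CAD at 72 h: 9.32, 9.59 and 9.50 in knockout cells, against 8.69, 9.24 and 8.66 in wild-type cells. All 3 knockout arrays lay above all 3 wild-type ones. The difference was 0.61 ± 0.192 (SE), or 1.52-fold higher, with a 95% interval of 0.20 to 1.01 and an unadjusted p of 0.00603, but it failed the adjustment (limma adjusted p = 0.243). Over the alternatives it ran from 0.51 to 0.80 with adjusted p of 0.0959 to 0.679. At 48 h the difference was 0.41 (interval 0.00 to 0.81; limma adjusted p = 0.838) and the groups overlapped. Untreated, CAD averaged 0.16 higher in knockout cells, where groups did not overlap either.

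Counted over the 9 members, 1 (CAD) had all untreated knockout arrays above all untreated wild-type arrays, and 3 (TYMS, PPAT and IMPDH2) had them below, where 8.84% and 9.30% of all probe sets did. At 48 h it was 0 above and 0 below (3.79% and 2.97%), and at 72 h 1 above and 0 below (6.65% and 5.00%). The untreated differences behind these counts were small, from −0.09 to 0.16 on the log2 scale.

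GART, PPAT and IMPDH2 also averaged higher in knockout cells at 72 h, by 0.31 (interval −0.01 to 0.63), 0.28 (−0.13 to 0.69) and 0.18 (−0.05 to 0.42). TK1 and RRM2 averaged lower, with differences of −0.44 (−0.88 to 0.00) and −0.38 (−0.80 to 0.04). TYMS, RRM1 and UMPS had differences of −0.10 (−0.47 to 0.26), −0.07 (−0.48 to 0.33) and 0.05 (−0.47 to 0.56), and these intervals still hold shifts of either sign. Taken between same-numbered arrays at 72 h, knockout was higher in 3 of 3 pairs for CAD, PPAT, GART and IMPDH2 and lower in 3 of 3 for RRM2 and TK1. At 48 h RRM2 and TK1 were again lower in 3 pairs. CAD, PPAT and GART were higher in 2 and lower in 1 there, and IMPDH2 was higher in 1 and lower in 1. The share of all probe sets with such agreement was not counted, so these pairs are a description only. With the replicate number as a block the smallest adjusted p of the members was 0.224, for CAD (limma). The 8 purine ring genes, PPAT and GART among them, had a median difference of 0.30 at 72 h, against 0.04 over the bright probe sets above, with none called. This was not particular to that list: the folate genes had 0.30 and the pyrimidine genes 0.23. Salvage genes had 0.03, deoxynucleotide supply −0.03 and breakdown genes −0.14.

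The change under ATRA was compared between genotypes by the difference of the differences. At 48 h 0 members were called and 0 had an unadjusted p under 0.05 (limma), with 0.00300% of all probe sets called. At 72 h it was 0 and 0, with 0% of probe sets called. The response at 72 h, knockout minus wild-type, was 0.45 for CAD (interval −0.13 to 1.03), 0.37 for GART (−0.08 to 0.82), 0.33 for PPAT (−0.25 to 0.91), −0.48 for TK1 (−1.10 to 0.14) and −0.40 for RRM2 (−0.99 to 0.20). So the calls of CAD, GART and TK1 that were made in wild-type cells and not in knockout cells at 72 h are not shown to differ between genotypes. These comparisons share the untreated arrays at both times.

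**Figure D4:**
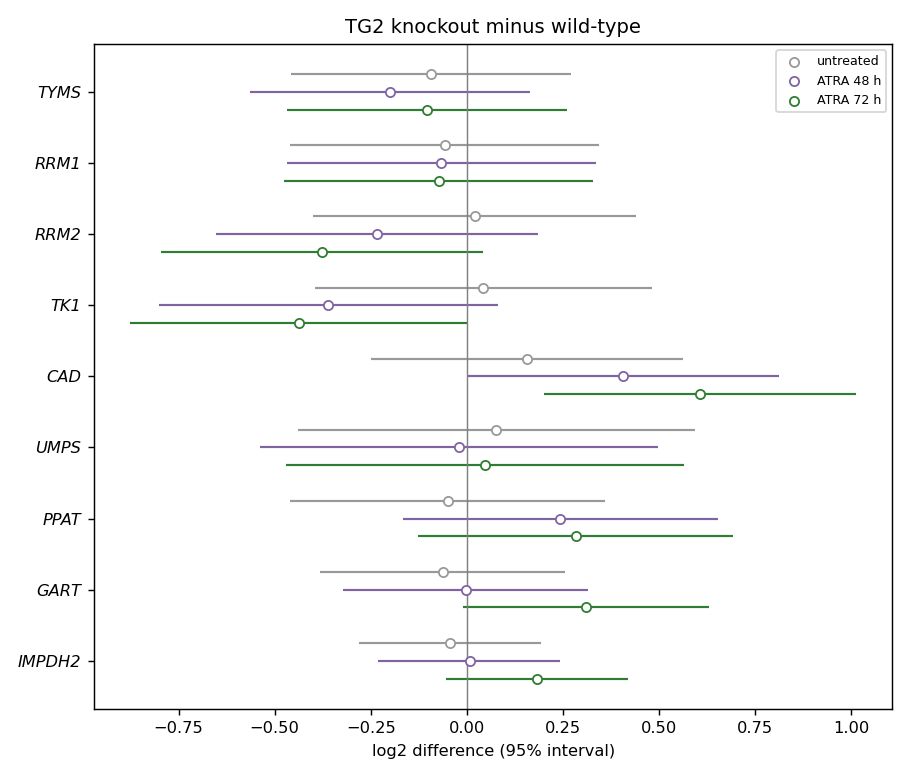
Knockout minus wild-type log2 difference of each member in untreated cells and at 48 and 72 h of ATRA, with 95% intervals from the model. All points are open because none passed the adjusted test, and the interval of CAD at 72 h (0.20 to 1.01) lies above 0.

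Between 48 and 72 h no member was called in either genotype (limma, 0 with an unadjusted p under 0.05, and 0% of all probe sets called). In knockout cells 6 of 9 members averaged lower at 72 h, with PPAT at −0.28 (interval −0.69 to 0.13). In wild-type cells all 9 averaged lower at 72 h, with −0.32 for PPAT (−0.73 to 0.09), −0.23 for TYMS (−0.60 to 0.14) and −0.23 for GART (−0.55 to 0.09). The changes of IMPDH2 (−0.03), RRM2 (−0.03) and CAD (−0.07) were small, and each changed sign in some alternative. The share of all probe sets that averaged lower was not counted, so these counts are no result about the members. The intervals given here are not adjusted for the number of probe sets. With 3 arrays a group, differences beyond them could thus also go uncalled.

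For each member the 2 genes outside the members with the most similar pattern were found. The measure was the root mean square distance of log2 values, centred on each gene's own mean over the 18 arrays. This is a description of likeness, and all genes share the arrays. TYMS was nearest to UBAP2L (0.093) and TRUB2 (0.096), a small distance beside its own spread of 0.517. RRM1 was nearest to G3BP1 (0.085) and EMC3 (0.094), and UMPS to PSMD2 (0.084) and TMEM109 (0.084). PPAT was nearest to TBCE (0.141) and GPD1L (0.152), CAD to PON2 (0.142) and TPCN1 (0.154), and GART to HAUS6 (0.096) and MRPL3 (0.099). For the members that did not fall, the nearest were GYS1 (0.111) and FADS2 (0.120) for RRM2, MYL6 (0.149) and LIMK1 (0.150) for TK1, and GANAB (0.067) and USP1 (0.072) for IMPDH2. The members were left out of this search, so their likeness to each other was not measured.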

How the data were processed

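Total RNA from NB4 cells was labelled with biotin and hybridised to Affymetrix whole-transcript arrays, per the labels' protocols. Each probe set has 1 deposited value per array, taken as log2 because the authors' values lie between 0.73 and 13.56. How the authors scaled and normalized them was not given in the sources used here. Of 33297 probe sets, 19460 are annotated to 1 gene, 1754 to several and 12083 to none, and only the first kind was named. No detection call was used.

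limma 3.58.1 (R 4.3.3) fitted 1 mean per group to 18 arrays, with a mean-variance trend, for 11 contrasts. All groups shared 1 estimate of the spread per probe set. Adjusted p is Benjamini-Hochberg over all probe sets. Replicate numbers were checked by correlating same-numbered arrays' deviations across probe sets. Knockout and wild-type arrays gave 0.103, 0.160 and 0.138 at 72 h, 0.196, 0.194 and 0.089 at 48 h, and −0.060, −0.056 and −0.128 untreated. A differently numbered pair, wild-type 48 h replicate 1 with knockout 72 h replicate 2, gave 0.172. The main tests used no pairing. Pairs at 48 and 72 h were counted as a description, and the number as a block was an alternative.

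The members and lists were chosen with earlier results of these data known. Named beside the members were up to 4 called genes per list with the largest wild-type change at 72 h (or, with none called, the 2 with the smallest p), PAICS, and 2 nearest genes per member. IMPDH1 and SHMT1 were chosen after their values were seen. Fits were tested on simulated data.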

Additional observations from a re-analysis of the deposited data

How the results depend on the processing

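Of 99 member results, 22 were called and 14 of those kept their call in every alternative: quantile normalization, median centring, brighter or single-gene probe sets only, array weights per group, robust eBayes or no trend, a fit of only the compared groups, the replicate block, and leaving out each array. No called result changed sign, and 36 uncalled ones did in some alternative. The count of called members in knockout cells at 48 h was 5, but 2 after quantile normalization, where CAD, UMPS and PPAT were lost, and 3 to 5 with 1 array left out (3 without untreated replicate 1 or 48 h replicate 2). The cause was not tested. With 1 array left out the count was 4 to 5 in knockout cells at 72 h, and in wild-type cells 4 to 6 at 48 h and 5 to 7 at 72 h. At 72 h the split of higher and lower members was 1 and 4 in knockout cells after quantile normalization, against 0 and 4, and in wild-type cells 1 and 4 after quantile normalization (UMPS and GART lost) and 0 and 6 after median centring, against 1 and 6. The median change of all probe sets was 0.10 to 0.14 and came to 0.05 to 0.07 after quantile normalization. The replicate block changed no member's call: 5 and 4 members were called in knockout cells and 6 and 7 in wild-type cells, and 0 in every comparison of genotypes. Those of genotypes and of 72 with 48 h stayed at 0 in every alternative. A second probe set per member could not be tried, since each has 1. The alternatives for the other lists were added after the data were seen. With 3 arrays a group and no detection call, small shifts were not detectable.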
